A study of Mus musculus and Homo sapiens with 19 samples.

Results

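The comparison described here set EMT6.5 tumour cells taken from a co-culture with Bend3 against EMT6.5 cells grown alone. It was chosen as the labels define the samples, by cell line and culture condition, and it comprised 2 of the 19 libraries of the series, 1 for each condition. EMT6.5 is a mouse mammary tumour line and Bend3 is a mouse endothelial line, and the labels of these libraries name no knockdown or overexpression construct. Per the labels, tumour and endothelial cells of the co-culture were separated by FACS before RNA extraction, and whether the cells grown alone were sorted too is not given, so co-culture and sorting cannot be told apart. The length of the co-culture, the cell ratio and the density are not given in the labels either. The Bend3 library of the same co-culture served only to bound how much endothelial RNA came with the sorted tumour cells, and the corresponding pair of another mouse mammary tumour line, 4T1, is given beside it. The series as a whole concerned PHGDH, which catalyses the first step from glycolysis into serine.

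With 1 library for each condition there was no replicate spread and no test, so the text gives ratios with 95% exact intervals that cover counting error only. Levels are given in CPM, counts scaled to a common library size with a correction for composition, and 1 count corresponded to 0.130 CPM in EMT6.5 alone and 0.215 CPM in EMT6.5 from co-culture. A gene is called higher or lower here when its ratio was at least 2-fold and its mean level over the pair was at least 5 CPM. Because the filter uses this mean, a gene near 0 in one library passes only through its level in the other.

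Tumour cells that meet endothelium in culture exchange soluble ligands, matrix and direct contacts with it. YAP is a transcriptional coactivator that binds DNA through TEAD factors and is known to respond to cell density, cell shape and matrix stiffness. Enzymes of sterol synthesis are controlled by SREBP factors, which are active when membrane sterol is low, whereas ABCA1 and ABCG1 export sterol and are controlled by LXR factors, which respond to oxysterols. Type I interferon acts on a set of antiviral genes, and the Id genes are direct targets of BMP signalling.

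Promoter sequences are shown for 4 genes that were lower in co-culture, because 2 of the gene groups described below are known for a shared DNA element. Each line gives the 150 bases before the RefSeq start of the gene (GRCm38.p6), read 5′ to 3′ on the gene's strand, and capitals mark the searched letters. For Hmgcs1, the HMG-CoA synthase of the mevalonate pathway, the capitals mark TCACNCCAC, a form of the sterol regulatory element. For Ankrd1, Ccn1 and Amotl2, genes known as YAP targets, the capitals mark CATTCC, the core of the TEAD element, which reads GGAATG where it lies on the other strand.
Hmgcs1, chr13:119690201-119690350, plus strand: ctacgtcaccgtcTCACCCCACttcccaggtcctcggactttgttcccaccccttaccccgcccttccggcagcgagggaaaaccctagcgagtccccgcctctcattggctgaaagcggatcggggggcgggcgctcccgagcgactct
Ankrd1, chr19:36119845-36119994, minus strand: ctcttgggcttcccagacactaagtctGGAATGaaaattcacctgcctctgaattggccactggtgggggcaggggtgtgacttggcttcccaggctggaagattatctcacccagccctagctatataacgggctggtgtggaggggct
Ccn1, chr3:145649986-145650135, minus strand: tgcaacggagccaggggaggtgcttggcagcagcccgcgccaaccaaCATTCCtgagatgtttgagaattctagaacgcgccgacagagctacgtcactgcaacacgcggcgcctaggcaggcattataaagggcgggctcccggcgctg
Amotl2, chr9:102717654-102717803, plus strand: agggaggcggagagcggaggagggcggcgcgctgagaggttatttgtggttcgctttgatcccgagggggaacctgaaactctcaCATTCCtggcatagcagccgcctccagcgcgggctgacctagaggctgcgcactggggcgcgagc
Both motifs were searched on both strands in the 250 bases before the start. The sterol element was found in 1 of the 19 promoters of sterol and fatty acid genes that could be matched, or 5.26%, against 1.05% of 32851 promoters of the same length. CATTCC was found in 10 of 23 matched promoters of the YAP list, or 43.5%, against 12.6% of all promoters. All 10 of these genes passed the level filter given above and 4 were called lower, and of the 13 without the letters 12 passed and 3 were called lower. The letters of one motif do not contain those of the other, and a match is a description of the letters and not of binding.

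The libraries held 7672654 assigned counts for EMT6.5 alone, 4687548 for EMT6.5 from co-culture and 5754247 for Bend3 from that co-culture. Of 55573 annotated genes, 10291 reached the level filter, and 534 of them, or 5.19%, were at least 2-fold higher in co-culture, while 687, or 6.68%, were at least 2-fold lower. These 2 shares are the background for the counts of list members below. The median log2 ratio over all 10291 genes was -0.03. At 4-fold the numbers were 78 higher and 107 lower. In 4T1 the same calls took 13.1% of 10211 genes higher and 12.6% lower. Mitochondrial transcripts made up 8.48% of assigned counts in EMT6.5 alone and 10.5% in co-culture, and the 10 most abundant genes 12.4% and 15.9%; the part of either in the ratios below was not tested.

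**Figure D1:**
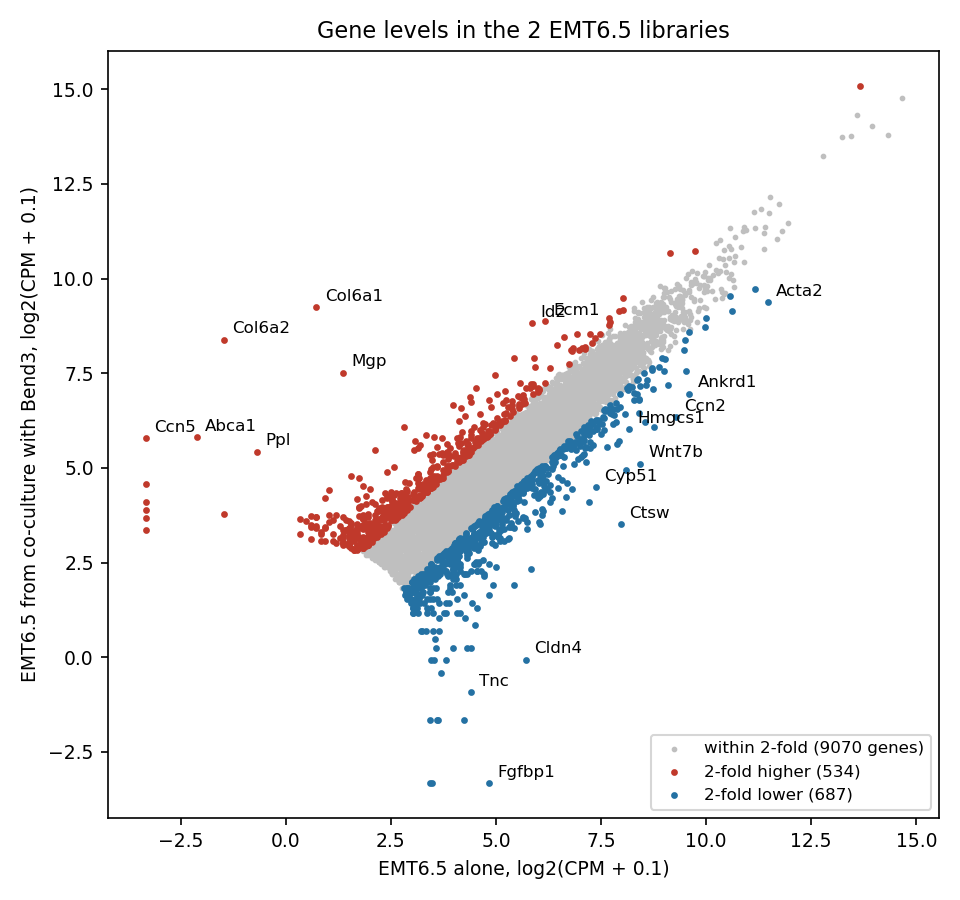
Level of each of the 10291 genes in EMT6.5 alone (horizontal axis) and in EMT6.5 from co-culture with Bend3 (vertical axis), as log2(CPM + 0.1), 1 library for each axis. Red points are the 534 genes at least 2-fold higher and blue points the 687 at least 2-fold lower; Col6a1, Col6a2, Mgp, Ccn5 and Abca1 lie far above the diagonal, and Cldn4, Tnc and Fgfbp1 far below it.

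Both libraries had the expression pattern of the same line. Of genes with at least 50 CPM in EMT6.5 alone and at most 0.5 CPM in 4T1 alone, all 36 were at or above 5 CPM in EMT6.5 from co-culture, with a median of 80.6 CPM alone and 84.0 CPM in co-culture. The 32 genes with the opposite pattern had a median of 92.3 CPM in 4T1 and 0.215 CPM in co-cultured EMT6.5, and the highest stood at 2.15 CPM. Epithelial markers were present in part. Of 38 epithelial genes 14 passed the level filter, and 14 had no count in either library. Krt18 stood at 405 CPM alone and 385 CPM in co-culture, and Cldn4, a tight junction claudin, had 404 counts alone and 4 in co-culture, whereas Epcam, an epithelial adhesion protein, had 2 counts in each library and Cdh1, which encodes E-cadherin, had 1 and 4. Smooth muscle actin and fibrillar collagen were abundant in the line when grown alone, with 2822 CPM for Acta2 and 1406 CPM for Col1a1.

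Endothelial RNA in the sorted tumour cells was low. Over 91 genes with at least 50 CPM in co-cultured Bend3 and at most 0.5 CPM in EMT6.5 alone, the level in co-cultured EMT6.5 above that in EMT6.5 alone was a median 0.483% of the Bend3 level, and 19 of these genes had no count there. The share from summed counts was 1.65% (95% counting interval 1.54% to 1.78%), and 0.864% (0.779% to 0.956%) without the 3 genes that exceeded 5%, among them Abca1 at 38.7%. The upper value, 1.78%, is used below as an upper estimate of the carried share. It covers counting error of the summed counts and not the spread between genes. Single genes lay above it, among them Mtus2 at 3.75% and Rbpms at 3.63%, while the median gene lay below it. Percentages that carried RNA could supply are worked out at this share. Of 40 endothelial markers 19 passed the level filter, 6 of them were higher in co-culture and none lower, and their sum over all 40 was 403 CPM alone and 480 CPM in co-culture, against 23388 CPM in Bend3. For 5 of these 6 carried RNA at 1.78% could supply the whole difference; Pecam1, a junctional adhesion molecule of endothelium, stood at 6.48 CPM alone and 18.2 CPM in co-culture and at 3503 CPM in Bend3. Markers that define endothelium were also present in EMT6.5 grown alone: Cdh5, which encodes VE-cadherin, had 55 counts alone and 35 in co-culture, and Kdr, a VEGF receptor, 272 and 131, while Vwf had none in either library. Of 16 leukocyte markers 8 had no count in either library, and the sum was 102 CPM alone and 79.4 CPM in co-culture. In a bulk library fewer cells of a type and less RNA per cell cannot be told apart.

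**Figure D2:**
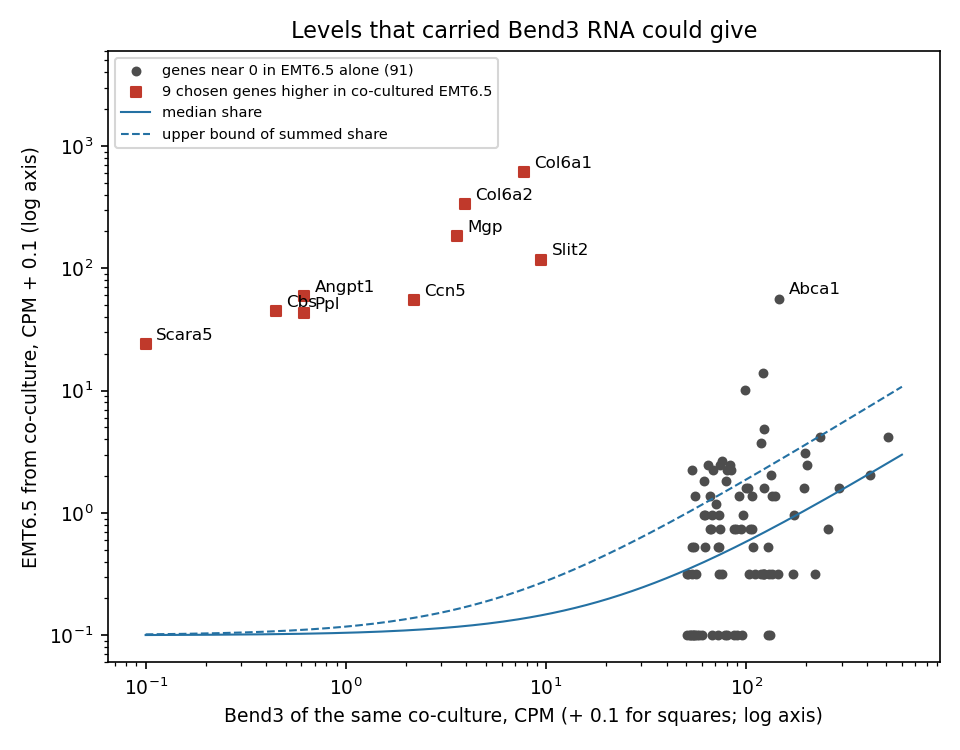
Level of genes in Bend3 of the same co-culture (horizontal log axis, CPM) against EMT6.5 from that co-culture (vertical log axis, CPM + 0.1). Grey circles are the 91 genes near 0 in EMT6.5 alone, red squares are 9 chosen genes that were higher in co-culture, and blue lines mark what a carried share of 0.483% (solid) or 1.78% (dashed) would give; the squares lie above both lines, and Pecam1 and the other endothelial markers that were higher are not drawn as squares.

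Several of the largest ratios belonged to genes of secreted and matrix proteins. Col6a1 and Col6a2, adjacent genes on chromosome 10 that encode chains of type VI collagen, a beaded microfibril around cells, were nearly silent in EMT6.5 alone and abundant in co-culture. Col6a1 (chr10:76708792-76726168, GRCm38) had 12 counts (1.56 CPM) alone and 2847 counts (611 CPM) in co-culture, a ratio of 393 (224 to 761). Col6a2 (chr10:76595762-76623630) had 2 counts (0.259 CPM) alone and 1560 counts (335 CPM) in co-culture, and its ratio of 1291 (357 to 10669) rests on 2 counts in the denominator. The third chain of the same fibril, Col6a3 on chromosome 1, had 21 counts (2.72 CPM) alone and 36 counts (7.72 CPM) in co-culture, a ratio of 2.84 (1.61 to 5.12). Bend3 held only 7.65 and 3.82 CPM of Col6a1 and Col6a2, below the levels in co-cultured EMT6.5. In 4T1 the levels alone and in co-culture were 16.5 and 115 CPM for Col6a1 and 1.39 and 19.9 CPM for Col6a2, higher in co-culture in both lines.

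Mgp encodes matrix Gla protein, a secreted inhibitor of calcification that binds BMP ligands. It had 19 counts (2.46 CPM) alone and 854 counts (183 CPM) in co-culture, a ratio of 74.4 (47.3 to 124), and stood at 2.55 and 602 CPM in 4T1. Ccn5, a secreted member of the CCN family that lacks the cystine-knot domain of its relatives, had no count in EMT6.5 alone and 256 in co-culture, at least 141-fold higher when 3 counts are taken for the 0. Scara5, a ferritin-binding scavenger receptor, likewise had 0 and 111 counts, at least 61.2-fold higher. Both genes were thus detected only in co-culture of this pair. Ppl, which encodes the desmosome-associated protein periplakin, had 4 counts (0.518 CPM) alone and 200 counts (42.9 CPM) in co-culture, a ratio of 82.8 (31.8 to 307). Ecm1, a secreted extracellular matrix protein, had 553 counts (71.7 CPM) alone and 2203 counts (473 CPM) in co-culture, a ratio of 6.59 (6.0 to 7.25). Among 20 named genes, carried RNA at the 1.78% share could supply at most 16.9% of any difference. These 20 had the largest ratios that lay beyond 2-fold over the whole interval. Of these 20 genes 14 passed the level filter in 4T1, where 11 were higher and 0 lower. That filter uses the mean over the 4T1 pair, so a gene low in 4T1 alone, such as Mgp, passed through its co-culture level. Genes low in 4T1 alone that did not rise were left out. The balance of 11 to 0 is thus set in part by the filter, and a shared direction was not tested by it.

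Of the 53 genes on the list of collagens and secreted matrix 39 passed the filter, with 7 higher and 10 lower. Higher members included Vcan, which encodes the proteoglycan versican, at 87.5 CPM alone and 301 CPM in co-culture, and Col18a1, a basement membrane collagen, at 113 CPM alone and 288 CPM in co-culture. Lower members included Tnc, which encodes tenascin-C, with 163 and 2 counts, and Postn, which encodes periostin, with 94 and 1. Tnc was thus 49.2-fold lower (13.4 to 410) and Postn 56.8-fold lower (9.95 to 2267), wide intervals that reflect the few counts in co-culture. Col7a1, the anchoring fibril collagen, stood at 88.3 CPM alone and 22.1 CPM in co-culture, 3.99-fold lower (3.24 to 4.96). The fibrillar collagens Col1a1 and Col1a2 were within 2-fold but below 1, at 1.8 (1.73 to 1.87) and 1.61-fold lower (1.56 to 1.67). Matrix genes thus lay on both sides of 1, and the list median was -0.34 on the log2 scale.

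Genes of sterol synthesis were lower as a group. Of 29 genes on the list of cholesterol and fatty acid synthesis 27 passed the filter, and 22 of these were at least 2-fold lower and none higher, against 6.68% lower among all genes. The median log2 ratio was -1.72, and the counting interval lay below 1 for 26 of the 27. The enzymes ran from the start of the mevalonate pathway to its last steps. Hmgcs1, whose promoter is printed above, stood at 289 CPM alone and 64.6 CPM in co-culture, 4.47-fold lower (3.96 to 5.06). Sqle, which makes squalene epoxide, stood at 115 CPM alone and 34.3 CPM in co-culture, 3.36-fold lower (2.84 to 4.0). Cyp51, lanosterol demethylase, and Msmo1, the methylsterol oxidase that follows it, had the lowest ratios of the list. Cyp51 stood at 165 CPM alone and 22.3 CPM in co-culture, 7.4-fold lower (6.06 to 9.13), and Msmo1 at 433 CPM alone and 67.4 CPM in co-culture, 6.43-fold lower (5.73 to 7.24). Dhcr7, a reductase at the end of the pathway, was 3.79-fold lower (3.05 to 4.76).

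Regulators of the pathway were next examined. Insig1, which holds SREBP in the endoplasmic reticulum and is itself an SREBP target, stood at 31.9 CPM alone and 5.15 CPM in co-culture, 6.19-fold lower (4.07 to 9.85). Of the SREBP genes themselves, Srebf2 stood at 233 CPM alone and 104 CPM in co-culture, 2.24-fold lower (2.02 to 2.48), whereas Srebf1 stood at 42.1 CPM alone and 48.1 CPM in co-culture with a ratio of 1.14 (0.958 to 1.36). Enzymes of fatty acid synthesis were divided. Acly, ATP citrate lyase, which supplies acetyl-CoA to fatty acid and sterol synthesis alike, stood at 233 CPM alone and 74.4 CPM in co-culture, 3.13-fold lower (2.78 to 3.52), and Fasn, fatty acid synthase, was 2.02-fold lower (1.86 to 2.19). Within 2-fold but below 1 were Acaca, acetyl-CoA carboxylase, at 1.38-fold (1.18 to 1.62), and the desaturases Scd1 at 1.11-fold (1.04 to 1.19) and Scd2 at 1.85-fold (1.79 to 1.92). The sterol exporters lay on the other side: Abca1 had 1 count (0.13 CPM) alone and 263 counts (56.4 CPM) in co-culture, a ratio of 435 (77.4 to 17257) that rests on 1 count in the denominator, and Abcg1 had 85 counts (11 CPM) alone and 172 counts (36.9 CPM) in co-culture, a ratio of 3.35 (2.57 to 4.4). Bend3 held 146 CPM of Abca1 and 97.1 CPM of Abcg1. Carried RNA at the 1.78% share could thus supply 4.6% and 6.67% of the 2 differences.

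In 4T1 the same list had the opposite balance, with 12 of 27 genes higher, 1 lower and a median log2 ratio of 0.69. The levels in 4T1 alone and in co-culture were 45.5 and 101 CPM for Hmgcs1 and 7.66 and 64.3 CPM for Dhcr7, and 222 and 105 CPM for Msmo1, the 1 lower gene. The lines also differed in level when grown alone: EMT6.5 held 5554 CPM summed over the list and 4T1 1659 CPM, and in co-culture the sums were 2336 and 2874 CPM. The difference between the lines was not tested, since each rests on 1 library for each condition.

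**Figure D3:**
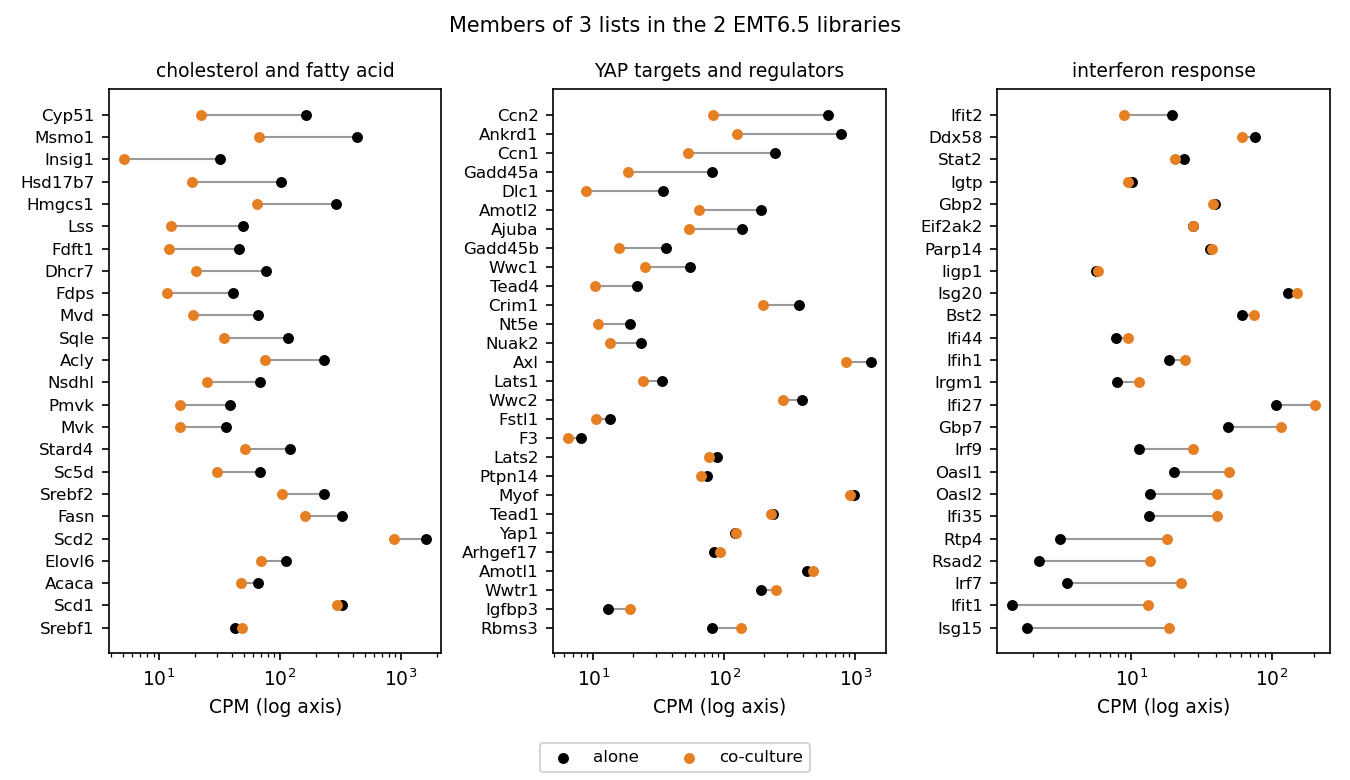
Levels in CPM (log axis) of members past the level filter of 3 lists, without 4 genes that are not shown, with EMT6.5 alone in black and EMT6.5 from co-culture in orange, sorted by ratio from lowest (top) to highest (bottom). In the left panel every sterol and fatty acid gene shown but Srebf1 has the co-culture point to the left, in the middle panel Ccn2, Ankrd1 and Ccn1 have the widest gaps, and in the right panel Isg15, Ifit1 and Irf7 have the co-culture point to the right.

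The YAP list joins genes known as YAP targets with members and regulators of the pathway. Of its 30 genes 28 passed the filter, 10 were lower and none higher, against 6.68% lower and 5.19% higher among all genes, and the median log2 ratio was -0.56. Ccn2, a secreted CCN protein also called CTGF, stood at 623 CPM alone and 81.3 CPM in co-culture, 7.67-fold lower (6.9 to 8.53). Ankrd1, a nuclear and sarcomeric repeat protein, stood at 775 CPM alone and 124 CPM in co-culture, 6.23-fold lower (5.72 to 6.79). Ccn1, also called CYR61, stood at 243 CPM alone and 52.3 CPM in co-culture, 4.65-fold lower (4.06 to 5.33). These 3 genes are widely used to read YAP activity, which was not measured here, and all were lower by more than 4-fold. Of the 28 genes that passed, 18 were within 2-fold. Amotl2 and Ajuba, scaffold proteins that feed back on the Hippo pathway, were 2.97 (2.62 to 3.37) and 2.56-fold lower (2.23 to 2.95). The coactivators themselves were within 2-fold: Yap1 had a ratio of 1.03 (0.929 to 1.15), and Wwtr1, which encodes TAZ, 1.31 (1.21 to 1.42). In 4T1 13 of 26 were lower and 2 higher, with a median of -1.11, and Ccn2 stood there at 172 and 4.46 CPM and Ankrd1 at 720.0 and 36.6 CPM, lower in co-culture in both lines.

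Contractile and mesenchymal genes were mixed. The list of 28 had 18 that passed, with 3 higher and 5 lower. Acta2, smooth muscle actin, stood at 2822 CPM alone and 662 CPM in co-culture, 4.26-fold lower (4.1 to 4.43). Myl9, a myosin light chain, was 3.36-fold lower (2.73 to 4.16) and Tpm1, a tropomyosin, 2.06-fold (1.98 to 2.14). S100a4, a calcium-binding protein of motile cells, was higher, at 564 CPM alone and 1640.0 CPM in co-culture, a ratio of 2.91 (2.8 to 3.02). Pdgfrb, the PDGF receptor of pericytes and fibroblasts, stood at 24.6 CPM alone and 86.2 CPM in co-culture, a ratio of 3.5 (2.94 to 4.18), and Prrx1, a mesenchymal homeobox factor, had a ratio of 3.31 (2.31 to 4.8). Among the transcription factors of epithelial-mesenchymal transition, Zeb1 and Snai2 were 3.68 (2.74 to 5.04) and 2.31-fold lower (1.79 to 3.01), while Zeb2, Snai1 and Twist1 had ratios of 1.47 (1.24 to 1.73), 1.69 (1.42 to 2.0) and 1.56 (1.26 to 1.92). Of 15 fibroblast and pericyte markers, which include Acta2 and Pdgfrb, 8 passed, and Col3a1, Dcn, Lum, Fap, Thy1 and Rgs5 had no count in either library.

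Of 38 epithelial genes 14 passed, with 1 higher and 4 lower. Cldn4, with the counts given above, was 61.0-fold lower (23.7 to 225). Elf3, an epithelial ETS factor, was 3.39-fold lower (2.47 to 4.74). Krt18 was within 2-fold, at 1.05-fold lower (0.991 to 1.11), and Krt7 was at the threshold, at 2.0-fold (1.82 to 2.2) and under it with DESeq2 size factors or a prior count. Among the lowest ratios outside the lists, Ctsw, a cathepsin best known from lymphocytes, stood at 249.6 CPM alone and 11.4 CPM in co-culture, 22-fold lower (16.7 to 29.4). Wnt7b, a secreted WNT ligand, stood at 345 CPM alone and 34.5 CPM in co-culture, 9.97-fold lower (8.51 to 11.8), and in 4T1 at 174 and 167 CPM, near equal in both conditions. Fgfbp1, a secreted carrier of FGFs, had 220 counts alone and none in co-culture, at least 44.3-fold lower. Of the 20 named genes with the lowest ratios 15 passed the filter in 4T1, where 9 were lower and 2 higher. Of all genes in 4T1 12.6% were lower and 13.1% higher. That filter uses the mean over the 4T1 pair, so genes low in both 4T1 libraries were left out. A shared direction was not tested.

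Ligands and receptors through which tumour cells address vessels went both ways. Of 43 genes on the list 34 passed, with 6 higher and 9 lower. Vegfa, the main angiogenic ligand, stood at 284 CPM alone and 132 CPM in co-culture, 2.14-fold lower (1.96 to 2.35). The PDGF ligands were lower, Pdgfb at 28.5 CPM alone and 3.0 CPM in co-culture, 9.49-fold (5.54 to 17.7), and Pdgfa at 513 CPM alone and 188 CPM in co-culture, 2.72-fold (2.53 to 2.93). Edn1, which encodes the vasoconstrictor endothelin-1, had 163 and 5 counts, 19.7-fold lower (8.27 to 61.5), and Efnb2, a membrane ligand of Eph receptors, was 3.12-fold lower (2.49 to 3.96). Angpt1, the ligand of the endothelial receptor TIE2, was higher, with 77 counts (9.98 CPM) alone and 274 counts (58.8 CPM) in co-culture, a ratio of 5.89 (4.56 to 7.69). Slit2, the ligand of ROBO receptors, stood at 20.9 CPM alone and 118 CPM in co-culture, a ratio of 5.64 (4.73 to 6.77), and Nrp1, a coreceptor for VEGF and semaphorins, at 244 CPM alone and 569 CPM in co-culture, a ratio of 2.33 (2.2 to 2.48). Bend3 held 0.521 CPM of Angpt1 and 9.38 CPM of Slit2, less than co-cultured EMT6.5 in each case.

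BMP and Notch genes included several with higher levels. Of 38 genes on the list of TGF-β and BMP 30 passed, with 4 higher and 5 lower. The higher ones were Id1, Id2, Id3 and Tgfb3, of which the ID genes encode inhibitors of basic helix-loop-helix factors. Id2 stood at 57.4 CPM alone and 455 CPM in co-culture, a ratio of 7.92 (7.15 to 8.8), Id1 at 23.1 CPM alone and 139 CPM in co-culture, a ratio of 6.02 (5.09 to 7.14), and Id3 at 98.1 CPM alone and 348 CPM in co-culture, a ratio of 3.55 (3.25 to 3.87). In 4T1 they stood at 19 and 362, 26.4 and 131 and 60.1 and 331 CPM in the same order, higher in co-culture throughout. Known targets of TGF-β were among the lower members, Pmepa1 at 2.17-fold (2.05 to 2.29) and Skil at 2.03-fold (1.78 to 2.31). On the Notch list, 13 of 24 genes passed, 3 higher and none lower: Notch1, a receptor, at 22 CPM alone and 68 CPM in co-culture, a ratio of 3.09 (2.55 to 3.74), Jag1, a ligand, with a ratio of 2.08 (1.73 to 2.5), and Nrarp, a feedback target, with a ratio of 2.46 (1.76 to 3.45). Carried RNA at the 1.78% share could supply 41.5% of the difference in Nrarp. With it subtracted at that share Nrarp (0.89) and Jag1 (0.99) were under 2-fold on the log2 scale. The target Hes1 had a ratio of 1.34 (1.24 to 1.46).

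Interferon-stimulated genes had the highest list median, 0.52. Of 42 on the list 25 passed, with 10 higher and 1 lower, against 5.19% higher among all genes. Isg15, Irf7 and Ifit1, given next, were under 5 CPM alone and passed only through their co-culture level. The list median and the count of higher members rest in part on such genes. Isg15, a ubiquitin-like modifier, had 14 counts (1.81 CPM) alone and 86 counts (18.4 CPM) in co-culture, a ratio of 10.2 (5.74 to 19.4). Irf7, the factor that amplifies the response, had 27 counts (3.5 CPM) alone and 106 counts (22.7 CPM) in co-culture, a ratio of 6.5 (4.23 to 10.3). Ifit1, an antiviral RNA-binding protein, had 11 counts (1.43 CPM) alone and 61 counts (13.1 CPM) in co-culture, a ratio of 9.18 (4.79 to 19.3), while its relative Ifit2 was 2.2-fold lower (1.54 to 3.18). Near-identical relatives in these families can share reads, so their counts are less certain. Ifnb1, which encodes interferon beta, had no count in either. Irf9, which carries the signal, had a ratio of 2.41 (1.82 to 3.19). Carried RNA at the 1.78% share could supply at most 11.7% of the difference in any of the 10. In 4T1 6 of 33 were higher and 7 lower, with a median log2 ratio of 0.30, above 0 as in EMT6.5. Alone and in co-culture, Irf7 stood there at 6.26 and 28.9 CPM and Gbp7, a guanylate-binding protein, at 22.3 and 54.7 CPM, higher as in EMT6.5. Isg15 stood at 26.2 and 23.5, Ifit1 at 53.6 and 23.2 and Rsad2 at 68 and 12.4 CPM.

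Of 28 chemokines and myeloid growth factors 14 passed, with 7 lower and 2 higher. Csf1, the macrophage growth factor, stood at 419.7 CPM alone and 192 CPM in co-culture, 2.18-fold lower (2.02 to 2.35). Cxcl16 was 3.32-fold lower (2.87 to 3.87), Lif, an interleukin-6 family cytokine, 4.11-fold (3.04 to 5.66), and Ccl2, a monocyte attractant, 2.82-fold (2.04 to 3.98). Ccl5, a T cell attractant, was higher, with 28 counts (3.63 CPM) alone and 89 counts (19.1 CPM) in co-culture, a ratio of 5.26 (3.41 to 8.36), and Il33, an alarmin, was higher with 11 counts (1.43 CPM) alone and 52 counts (11.2 CPM) in co-culture. Vcam1, an adhesion molecule, stood at 142 CPM alone and 35.6 CPM in co-culture, 3.98-fold lower (3.38 to 4.71), and Tnfaip3, a feedback inhibitor of NF-kB, was 3.85-fold lower (2.92 to 5.14). Of 23 genes on the list of NF-kB targets and adhesion 18 passed, with 4 lower and none higher.

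Immediate early genes, which are induced within minutes of a stimulus and also by handling, split. Of 28 on the list 25 passed, with 5 higher and 4 lower. Fos stood at 8.3 CPM alone and 52.3 CPM in co-culture, a ratio of 6.31 (4.77 to 8.45), and Egr1 at 28.3 CPM alone and 110.5 CPM in co-culture, a ratio of 3.91 (3.33 to 4.6). Jun, the partner of Fos in AP-1, stood at 131 CPM alone and 39 CPM in co-culture, 3.35-fold lower (2.85 to 3.94), and the phosphatase Dusp1 at 336 CPM alone and 113 CPM in co-culture, 2.97-fold lower (2.7 to 3.26). Carried RNA at the 1.78% share could supply at most 22.8% of the difference in any of the 5 higher members. Co-culture and sorting cannot be told apart for these genes either.

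Proliferation genes were lower by a modest factor. Of 38 mitotic genes 37 passed, with 8 at least 2-fold lower and none higher, a median log2 ratio of -0.63 and a counting interval below 1 in 34. Cdc20, an activator of the anaphase-promoting complex, stood at 314 CPM alone and 127 CPM in co-culture, 2.48-fold lower (2.27 to 2.72), and Mki67, a proliferation marker, at 203 CPM alone and 147 CPM in co-culture, 1.39-fold lower (1.27 to 1.52). All 39 genes of DNA replication passed, with 9 lower, none higher, a median of -0.54 and an interval below 1 in 28. Of all genes 33.2% had an interval below 1, a background not matched for level. The 6 subunits of the MCM helicase, Mcm2 to Mcm7, were 1.6 to 2.54-fold lower. In 4T1 the medians were 0.27 for mitosis and 0.23 for replication, with 4 of 37 and 6 of 38 genes higher and none lower. Of all genes in 4T1 13.1% were higher and 12.6% lower, so the shares of higher members were near that background.

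**Figure D4:**
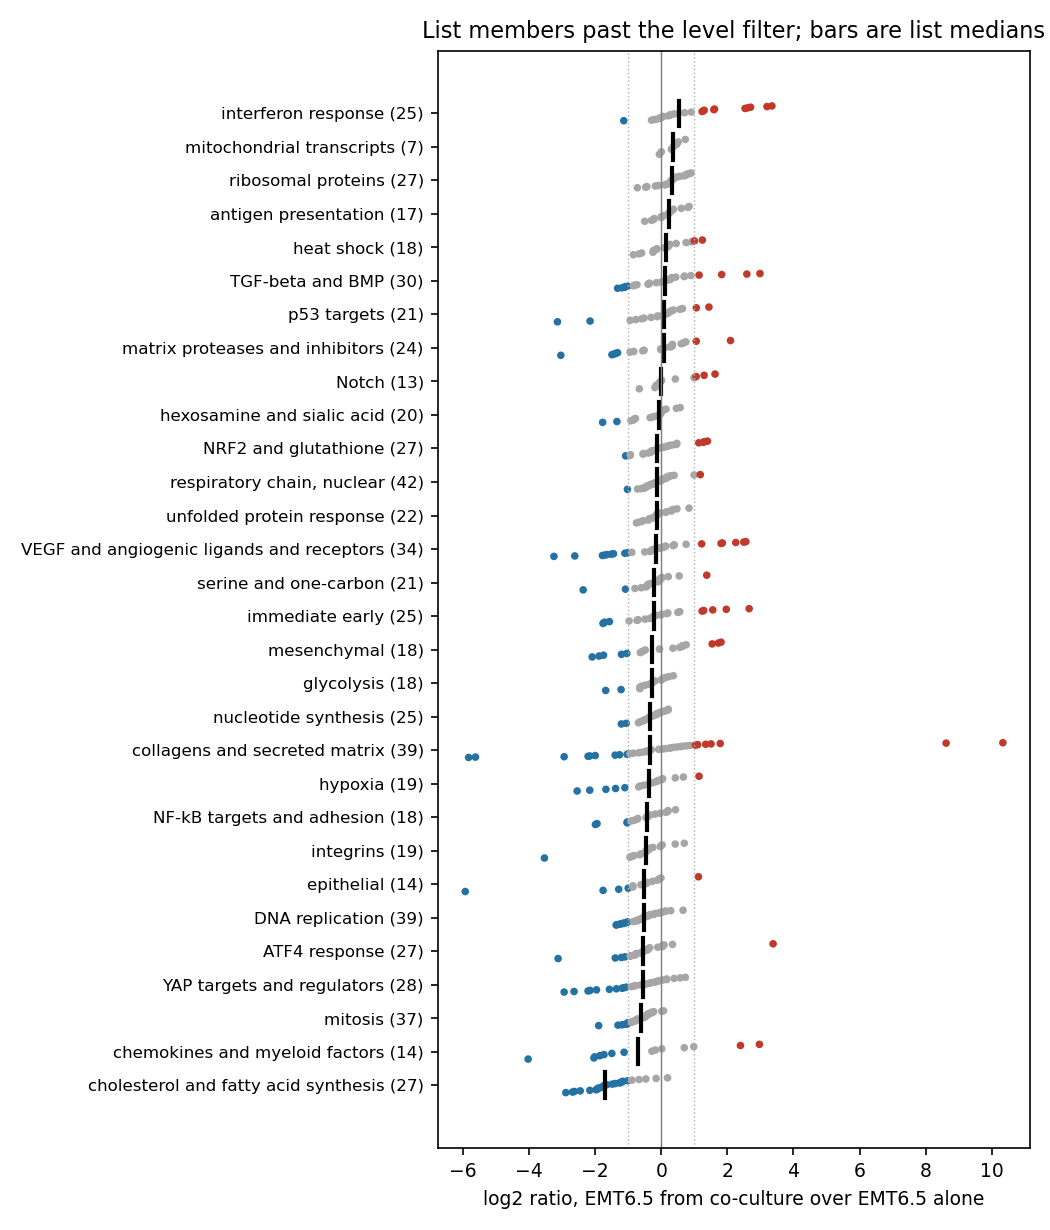
Log2 ratio of EMT6.5 from co-culture over EMT6.5 alone for the members past the level filter of 30 gene lists, 1 point per gene, with the number of members in parentheses and the list median as a black bar. Red and blue points are at least 2-fold higher and lower; the medians run from -1.72 for sterol and fatty acid synthesis to 0.52 for the interferon response.

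Most genes of serine and one-carbon metabolism were within 2-fold. Of 26 on the list 21 passed, with 1 higher and 2 lower, against 5.19% and 6.68% of all genes. Phgdh itself was low in this line, with 50 counts (6.48 CPM) alone and 10 counts (2.15 CPM) in co-culture. Its mean of 4.31 CPM was under the level filter, so it is not called, and its ratio was 0.331 (0.15 to 0.66). The next enzymes of serine synthesis, Psat1 and Psph, were closer to 1. Psat1 stood at 259.6 CPM alone and 195 CPM in co-culture, 1.33-fold lower (1.23 to 1.44), and Psph at 69.3 CPM alone and 39.9 CPM in co-culture, 1.74-fold lower (1.47 to 2.06). Mthfd2, a mitochondrial folate enzyme, stood at 421 CPM alone and 199 CPM in co-culture, 2.12-fold lower (1.97 to 2.28), and Shmt2, which splits serine in mitochondria, was 1.53-fold lower (1.38 to 1.69). The intervals of the cytosolic Shmt1 and Mthfd1 included 1. In 4T1 Phgdh passed the filter and stood at 15.1 and 4.93 CPM, lower in co-culture.

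Genes controlled by ATF4, which include Phgdh and Psat1 in many cells, were mostly below 1. Of 33 on the list 27 passed, with 4 lower and 1 higher, and the interval lay below 1 for 20. Among all genes 6.68% were lower and 33.2% had an interval below 1, a background not matched for level. Chac1, which degrades glutathione, stood at 148 CPM alone and 16.9 CPM in co-culture, 8.7-fold lower (6.92 to 11.1), and Asns, asparagine synthetase, at 247 CPM alone and 145 CPM in co-culture, 1.71-fold lower (1.56 to 1.86). The gene that was higher, Cbs, makes cystathionine from homocysteine and serine, and had 33 counts (4.28 CPM) alone and 208 counts (44.6 CPM) in co-culture, a ratio of 10.4 (7.2 to 15.6). In 4T1, where 24 of 29 were lower, the list median was -2.02, against -0.55 in EMT6.5.

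In the hexosamine and sialic acid pathway, which supplies sugars to glycosylated integrins, 20 of 24 genes passed, with 2 lower and none higher. Among all genes 6.68% were lower and 5.19% higher, and the list median was -0.06 on the log2 scale. Gne, which starts sialic acid synthesis, stood at 34.5 CPM alone and 10.1 CPM in co-culture, 3.42-fold lower (2.5 to 4.77), and Neu1, a sialidase, was 2.53-fold lower (2.09 to 3.1). Cmas, which activates sialic acid, was 1.8-fold lower (1.61 to 2.02), and the sialyltransferase St3gal1 1.72-fold (1.53 to 1.94). Gfpt1, Gnpnat1, St3gal4 and St6gal1 had intervals that included 1, and Gfpt2 had no count in either library. Of 28 integrin genes 19 passed, with 1 lower and none higher, a share of lower genes near the 6.68% of all genes. The interval lay below 1 for 14, against 33.2% of all genes, a background not matched for level. Intervals are narrower at high counts, so abundant genes clear 1 at smaller shifts. Itga2, the collagen receptor chain, stood at 57.2 CPM alone and 4.93 CPM in co-culture, 11.6-fold lower (7.62 to 18.5). Itgav stood at 108 CPM alone and 58.3 CPM in co-culture, 1.85-fold lower (1.62 to 2.13). Its partner Itgb3 stood at 167 CPM alone and 86.7 CPM in co-culture, 1.93-fold lower (1.72 to 2.16), and Itgb1 was 1.76-fold lower (1.7 to 1.83). In 4T1 Itgb3 stood at 0.232 CPM alone, the level of 1 count, and at 15 CPM in co-culture. It passed the filter there only through its co-culture level, and carried Bend3 RNA was not bounded for 4T1.

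Over the 9465 genes that passed the filter in both lines, 397 were higher in EMT6.5 and 135 of these, or 34.0%, were higher in 4T1 as well, where 11.8% of the 9465 were higher. Seen from 4T1 the shared genes were 12.1% of its 1116, against 4.19% of the 9465 that were higher in EMT6.5. Of 556 lower genes 157, or 28.2%, were also lower in 4T1, where 12.1% of all were. They made up 13.7% of its 1146, against 5.87% of the 9465 that were lower in EMT6.5. The opposite calls were fewer than the shared ones. Of the 397 higher genes 25 were lower in 4T1, a share below the 12.1% of all genes that were lower there. Of the 556 lower genes 66 were higher in 4T1, a share near the 11.8% of all genes that were higher there. The lines share no library, but the co-cultures of both had the same partner and the same sorting step. Carried Bend3 RNA was bounded for EMT6.5 only. In 4T1 the 40 endothelial markers summed to 309 CPM alone and 717 CPM in co-culture, and 10 of the 19 that passed were higher and 0 lower. The part of carried RNA in the 4T1 values was not tested.

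**Figure D5:**
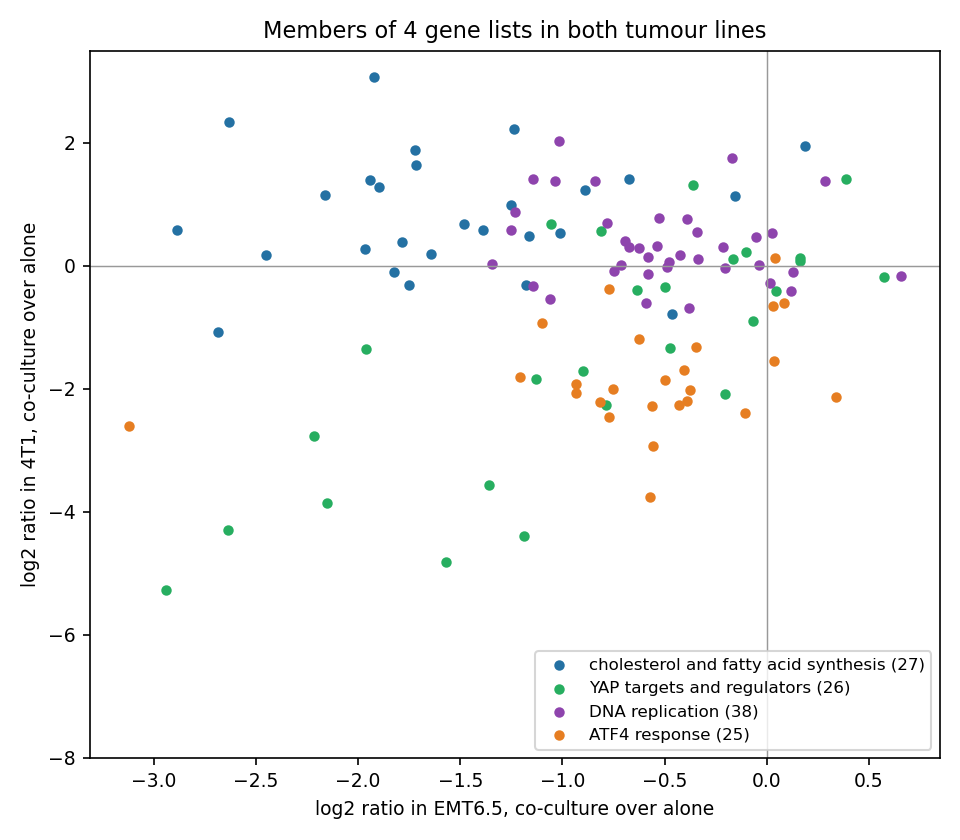
Log2 ratio of co-culture over alone in EMT6.5 (horizontal axis) and 4T1 (vertical axis) for members of 4 lists that passed the level filter in both lines, 1 point per gene, each axis from 1 pair of libraries. Sterol and fatty acid genes (blue) lie mostly left of 0 and above 0, and YAP targets and regulators (green) reach the lower left. ATF4 genes (orange) lie lower on the 4T1 axis than on the EMT6.5 axis, and replication genes (purple) lie mostly left of 0 and around 0 in 4T1.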

How the data were processed

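The authors deposited raw gene counts for each library. The submitters' processing notes name HISAT2 2.1.0, HTSeq, Trim Galore 0.5.0 and the GRCm38 build. The annotation, strand setting and counting mode are not given in the sources used here, so overlapping and antisense genes cannot be told apart. Per the labels, stranded mRNA libraries were read as single ends. Assigned counts made up 34.0% to 38.9% of all entries and entries aligned to several places 49.0% to 55.3%, so genes with near-identical copies are uncertain.

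Counts of the EMT6.5 pair were scaled by TMM in edgeR 4.0.16 (R 4.3.3) to CPM, and those of Bend3 by the library total. Ratios carry 95% exact binomial intervals (scipy 1.17.1), checked on simulated counts; molecular identifiers are not described, so intervals cover counting error only. Genes needed a mean of 5 CPM, a call needed 2-fold, and a count of 0 was replaced by 3 counts for a bound. Positions came from GENCODE vM21.

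The 34 gene lists and the comparison were chosen with earlier results of these data known. Named genes were the 20 highest and 20 lowest ratios among genes averaging 10 CPM or more whose interval lay past 2-fold, 21 genes of serine, sialic acid and integrin biology, and up to 4 members of each list; 116 further genes were added after their values were seen. Alternatives were other scalings (DESeq2 1.42.0 size factors, library totals), other filters, a prior count of 2 and subtraction of carried Bend3 RNA. Results for a few genes are not reported here.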

Additional observations from a re-analysis of the deposited data

Results flagged for a closer look

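15 named genes were called in opposite directions in EMT6.5 and 4T1, at least 2-fold higher in co-culture in one line and at least 2-fold lower in the other. Each line had 1 library for each condition, so the difference between the lines was not tested. In what follows the first value is the log2 ratio in EMT6.5 and the second that in 4T1.

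Genes of sterol synthesis, its control and transport were lower in EMT6.5 and higher in 4T1: Hmgcs1 (-2.16 and 1.15), Fdft1 (-1.94 and 1.40), Dhcr7 (-1.92 and 3.07), Insig1 (-2.63 and 2.34) and Stard4 (-1.24 and 2.23). Among antiviral interferon-stimulated genes 3 were called the other way round: Ifit1 (3.20 and -1.21), Rsad2 (2.62 and -2.45) and Oasl1 (1.30 and -1.62). The median log2 ratio of the interferon list was above 0 in both lines. It was 0.52 over the 25 members that passed in EMT6.5 and 0.30 over the 33 that passed in 4T1. By calls, 10 were higher and 1 lower in EMT6.5, and 6 higher and 7 lower in 4T1. Secreted or membrane signals were divided: Ccl5 (2.40 and -3.05), Csf3 (-2.02 and 1.53) and Jag1 (1.06 and -1.37), of which Ccl5 and Csf3 are a chemokine and a myeloid growth factor and Jag1 is a Notch ligand. The proteases Mmp10 and Prss22 and smooth muscle actin, Acta2, were lower in EMT6.5 and higher in 4T1, as was the adaptor gene Sh2d5: Mmp10 (-3.04 and 4.20), Prss22 (-3.71 and 2.30), Acta2 (-2.09 and 1.06) and Sh2d5 (-3.30 and 2.07). Acta2 stood at 2822 CPM in EMT6.5 alone but at 3.94 CPM in 4T1 alone, so its ratios start from very different levels. Several of these genes were under 5 CPM either alone or in co-culture, and passed the level filter only through the other library. Alone and in co-culture, Mmp10 stood at 1.16 and 21.3 CPM in 4T1 and Insig1 at 3.25 and 16.4 CPM. In EMT6.5 Rsad2 stood at 2.20 and 13.5 CPM and Ifit1 at 1.43 and 13.1 CPM. Such ratios rest on few counts.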

How the results depend on the processing

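The number of genes at least 2-fold higher, 534, was 494 to 545 under other scalings, a prior count and subtraction of carried Bend3 RNA, and the number lower, 687, was 655 to 772. The level filter and the counting error moved both: at a mean of at least 1 CPM 1306 were higher and 1309 lower, at 20 CPM 208 and 338, and with the nearest bound of the interval past 2-fold 202 and 275. The carried share of 0.483% was 0.307% and 0.760% with other gene sets and 1.65% from summed counts. Subtracting Bend3 RNA at the median share reversed the log2 ratio of Pecam1 to -2.29, and subtracting it at the upper bound, an alternative chosen after seeing the data, reversed S1pr1 to -1.90 and took the median of the endothelial markers from 0.41 to -0.56. Of 165 named genes that were called, 6 were no longer called the same way under another scaling, a prior count or subtraction of Bend3 RNA. Pecam1 and S1pr1, which are endothelial markers, were lost by subtraction as above (Pecam1 reached 0 at the upper bound). Jag1 (0.99) and Nrarp (0.89) were lost with Bend3 RNA subtracted at the upper bound. Cdk1 (-0.997) and Krt7 (-0.99) were lost with DESeq2 size factors, and Krt7 also with a prior count (-0.998). The other level filters and the nearest bound of the interval were not applied to this count. They would leave out further named genes, among them Fasn, whose interval given above includes 2-fold. No paired analysis was possible because each condition had 1 library. Depth limits genes near the floor of 3 counts, 0.389 CPM in EMT6.5 alone and 0.644 CPM in co-culture.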

Other observations

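Genes of matrix breakdown went both ways in co-cultured EMT6.5. Of 36 proteases and inhibitors 24 passed the level filter, with 2 higher and 5 lower. Mmp13, a collagenase, had 31 counts (4.02 CPM) alone and 80 counts (17.2 CPM) in co-culture, a ratio of 4.27 (2.79 to 6.69), and Adam10, a sheddase that also cleaves Notch receptors, had a ratio of 2.08 (1.85 to 2.35). Plau, which encodes urokinase, stood at 311 CPM alone and 110.5 CPM in co-culture, 2.82-fold lower (2.56 to 3.1). Mmp14, a membrane collagenase, was within 2-fold at a ratio of 1.25 (1.18 to 1.33).

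Of 22 hypoxia genes 19 passed, with 5 lower and 1 higher. Adm, a vasodilator peptide, stood at 66.4 CPM alone and 11.4 CPM in co-culture, 5.84-fold lower (4.39 to 7.9), and Bnip3, a mitophagy receptor, was 2.61-fold lower (2.16 to 3.17). Glycolysis genes had 2 of 18 lower and none higher, and Hk2, hexokinase 2, was 1.57-fold lower (1.42 to 1.73). On the list of NRF2 and glutathione genes 4 of 27 were higher and 1 lower. Gclc, which makes the rate-limiting subunit for glutathione, had a ratio of 2.63 (2.33 to 2.97), Gstm1 and Gsta4, glutathione transferases, 2.47 (2.29 to 2.66) and 2.42 (2.27 to 2.58), and Hmox1, heme oxygenase, 2.19 (1.75 to 2.76). No member of antigen presentation (17), the unfolded protein response (22) or the ribosomal proteins (27) reached 2-fold in either direction. Among p53 targets Cdkn1a, a cell cycle inhibitor, had a ratio of 1.56 (1.42 to 1.72), within 2-fold, and Plk2, a polo-like kinase, was 8.82-fold lower (7.45 to 10.5). These are ratios of 1 library to 1 library with no replicate check.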
